A study of Caenorhabditis elegans with 2 samples.

Results

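The weaker part of the thresholded ChIP-seq peaks of ZK546.5 in the nematode Caenorhabditis elegans is described here. They are 312 of the 470 nuclear peaks on the thresholded list, or 66.4%, whose pooled signal was 100 or lower. ChIP-seq recovers and sequences the DNA bound by a protein, and a peak is a place where that DNA piled up over a control library. The peaks came from 1 group, strain OP231, whose genotype was unc-119(ed3) III; wgIs231. This 1 transgenic line carried ZK546.5 with a GFP-FLAG tag at its C-terminus. Whole second-stage (L2) larvae of both sexes were used in 2 biological replicates, their age is listed as unknown, and cell types were not separated. Which cell types held the tagged protein was not tested. The list is the authors' list labelled optimal and thresholded by IDR, a measure of reproducibility, on the ce11 build. That label does not state that each peak was reproducible between the 2 replicates. Members were chosen by signal, so signals, ranks and replicate signals are given as a description, without tests. The other 158 nuclear peaks, above 100, are called strong, and 29469 nuclear peaks of the pooled list that overlapped no thresholded peak are called sub-threshold. Of the 491 thresholded peaks 21 were mitochondrial and were left out, 1 of them at or below 100.

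ZK546.5 has a zinc finger of the C2H2 type, a fold in which a zinc ion holds a small loop that can read bases of DNA. Several fingers in a row can read a longer stretch, and proteins with such fingers include both activators and repressors. The C. elegans genome is compact: promoters tend to be short, and neighbouring genes transcribed away from each other can share the stretch between them. The sequences around weak summits are shown first, because the shared short words in them are a main feature of the set. Each covers the summit and 50 bases to either side of it, read 5' to 3' on the plus strand of ce11, with capitals marking matches, on either strand, to any of 10 six-base words that were taken from strong peaks alone. The first 5 are the weak peaks of highest signal on chromosomes II to V and X whose printed bases overlapped no annotated exon, the next 4 were chosen after their values were seen because they held many of the words, and the last is a strong peak for comparison.
weak, hmg-12 and vps-15 (chrII:11916337-11916437): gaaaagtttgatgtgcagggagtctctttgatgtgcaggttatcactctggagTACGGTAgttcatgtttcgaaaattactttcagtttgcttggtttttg
weak, wip-1 and larp-1 (chrIII:5018240-5018340): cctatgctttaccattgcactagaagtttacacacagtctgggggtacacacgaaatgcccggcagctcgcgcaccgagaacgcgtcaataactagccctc
weak, W03F8.4 (chrIV:5183817-5183917): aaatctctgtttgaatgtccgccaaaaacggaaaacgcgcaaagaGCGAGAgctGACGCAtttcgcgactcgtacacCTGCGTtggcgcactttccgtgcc
weak, no coding gene, chromosome V (chrV:2600678-2600778): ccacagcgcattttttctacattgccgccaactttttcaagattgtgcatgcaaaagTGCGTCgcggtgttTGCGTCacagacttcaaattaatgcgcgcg
weak, no coding gene, chromosome X (chrX:16929716-16929816): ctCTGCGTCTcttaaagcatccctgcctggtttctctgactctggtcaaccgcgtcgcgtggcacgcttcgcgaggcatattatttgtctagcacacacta
weak, ndub-8 and cup-14 (chrII:13872639-13872739): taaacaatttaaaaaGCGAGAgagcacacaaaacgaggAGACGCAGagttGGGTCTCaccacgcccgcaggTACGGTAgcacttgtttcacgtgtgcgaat
weak, rpl-29 and thoc-7 (chrIV:13881910-13882010): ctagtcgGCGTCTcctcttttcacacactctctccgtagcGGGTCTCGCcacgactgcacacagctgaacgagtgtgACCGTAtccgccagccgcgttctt
weak, ccar-1 (chrIV:14071033-14071133): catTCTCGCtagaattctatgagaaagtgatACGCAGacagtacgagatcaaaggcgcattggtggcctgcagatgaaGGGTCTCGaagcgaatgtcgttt
weak, Y77E11A.7 and jtr-1 (chrIV:1420292-1420392): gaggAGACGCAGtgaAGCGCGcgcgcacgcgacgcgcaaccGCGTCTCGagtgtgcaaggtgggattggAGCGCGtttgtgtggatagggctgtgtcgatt
strong, sec-61.G (chrV:10897330-10897430): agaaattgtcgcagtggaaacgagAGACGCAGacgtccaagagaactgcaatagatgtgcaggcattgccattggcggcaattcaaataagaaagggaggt

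The peak between hmg-12, which encodes an HMG-type DNA-binding protein, and vps-15, which encodes a kinase subunit of membrane traffic, had a pooled signal of 98.6 and held the 2 words ACCGTA and ACGGTA as a single run near the summit. The peak at wip-1 and larp-1 (97.7) held none of the 10 words, and W03F8.4 (96.0) held 3. The peak with the most words, 8 of 10, lay between ndub-8, a gene of respiratory complex I, and cup-14, and its signal was 92.8. That at rpl-29, a large-subunit ribosomal protein gene, held 6 words at a signal of 79.6. The strong peak of sec-61.G, a translocon subunit gene, had a signal of 3081 and held 3 words.

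Signals of weak peaks ran from 45.9 to 99.4 with a median of 60.7 (quartiles 51.7 and 73.4). Those of strong peaks ran from 100.4 to 3454 with a median of 178.6. Within the weak set 53 had a signal of 50 or lower, 92 lay above 50 and up to 60, 120 above 60 and up to 80, and 47 above 80. Together they held 21.6% of the summed nuclear thresholded signal. All but 1 of them, 311, were 356 bp wide with the summit exactly in the middle. Of the 158 strong peaks 55 had the summit exactly in the middle, whatever their width. The weak peaks had a summed width of 110814 bp.

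Just inside the limit of 100 were the peaks of Y87G2A.18 and Y87G2A.1 (99.4), hmg-12 and vps-15 (98.6), drap-1, which encodes a subunit of a repressor of RNA polymerase II (98.3), wip-1 and larp-1 (97.7), and a peak on chromosome III with no gene in its window (97.2). Just outside it were the peaks of the splicing genes rsp-5 and snr-3 (100.35), a peak on chromosome IV without a coding gene (100.37), serp-1.1 (101.6), a peak on chromosome III without a coding gene (101.8), and C17E4.6 and pabp-2 (102.0). At the lower end, the weakest thresholded peak had a signal of 45.93, and the highest sub-threshold peak had 45.91. Both limits cut through a continuous range of signal.

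Both replicate lists, of 19056 nuclear peaks in replicate 1 and 29977 in replicate 2, held nearly all weak peaks by an overlap of at least 1 bp: 311 in that of replicate 1 and 312 in that of replicate 2. Signals in the list of replicate 1 ran from 16.7 to 131.5 with a median of 37.5, and in that of replicate 2 from 6.31 to 81.3 with a median of 25.5. The lists are not on a shared scale, so only ranks and order are set side by side. Median ranks of weak peaks were 318 and 329, and 165 weak peaks ranked within the first 470 in both lists. Past rank 1000 lay 15 weak peaks in replicate 1 and 41 in replicate 2.

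The replicates ordered weak peaks differently. The Spearman correlation of the replicate signals was 0.149 over 311 weak peaks, against 0.883 over 158 strong peaks. Weak peaks also spanned a narrower range of signal, and its part in the lower correlation was not tested. Leaving aside H41C03.3, the weak peak whose poorer rank was best lay at kel-3, with signals of 60.9 in replicate 1 and 42.0 in replicate 2 (ranks 156 and 157). The peak between Y53F4B.11 and Y53F4B.9 had 43.2 in replicate 1 and 6.31 in replicate 2, at ranks 241 and 26560. At unc-16, a gene of axonal transport, the signal was 40.5 in replicate 1 and 6.46 in replicate 2 (ranks 275 and 25364). At timm-23, a gene of mitochondrial import, the order was the other way, with 16.7 in replicate 1 (rank 3445) and 33.6 in replicate 2 (rank 218). The 5 weak peaks whose ranks differed most all ranked better in replicate 1. The list of replicate 2 is longer, with 29977 nuclear peaks against 19056, so poorer ranks are possible there. The weak peak absent from the list of replicate 1 had no rank in it and could not be compared. The highest replicate signals among weak peaks, 131.5 and 81.3 at H41C03.3, came from replicate peaks at an overlapping strong peak: 2 weak peaks overlapped a strong one.

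**Figure D1:**
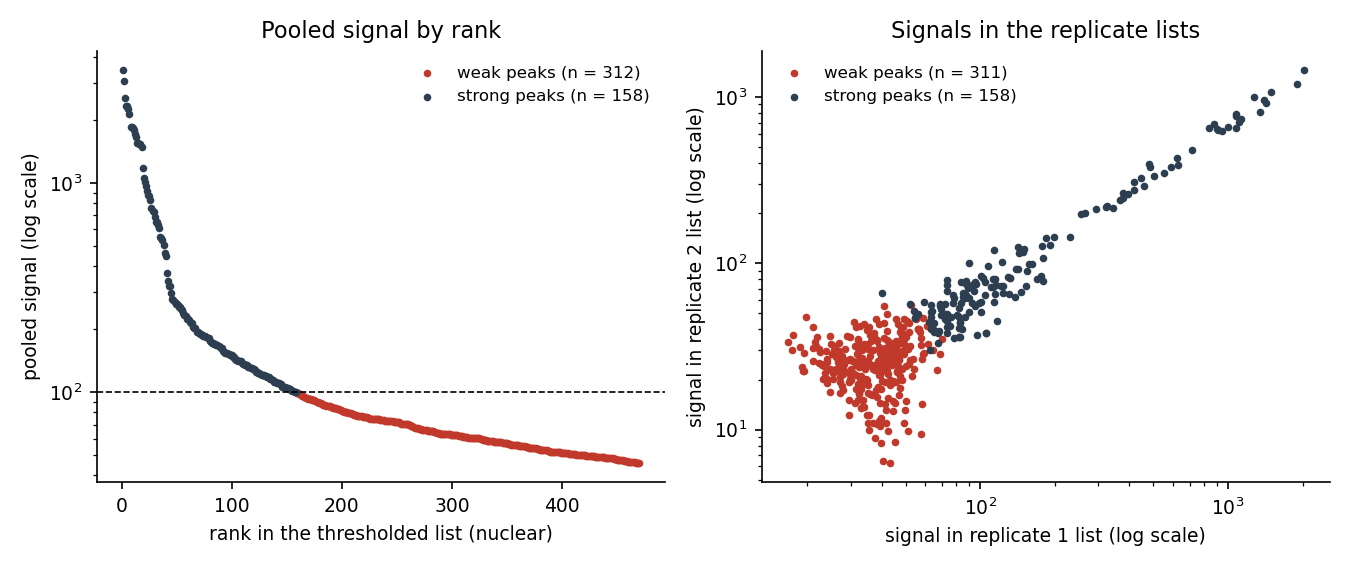
Left, pooled signal (log scale) against rank for the 312 weak and 158 strong nuclear peaks, with a dashed line at 100. Right, signals of the same peaks in the list of replicate 1 and in that of replicate 2 (both log scales), for the 311 weak and 158 strong peaks found in both; strong peaks form a narrow line and weak peaks a cloud with a Spearman correlation of 0.149.

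Weak and strong peaks had nearly equal shares in promoters. A promoter window, from 1000 bp upstream to 200 bp downstream of any annotated 5' end, held 270 of 312 weak summits, 86.5% (95% exact interval 82.2 to 90.1), against 137 of 158 strong summits, 86.7%. Fisher's exact test, two-sided throughout, gave an odds ratio of 0.995 (95% interval 0.570 to 1.74; adjusted p = 1). Of sub-threshold summits 42.0% were in such a window, and the odds ratio of weak against sub-threshold peaks was 8.80 (6.36 to 12.2; Fisher's exact test, adjusted p = 1.41e-58). Against the 312 sub-threshold peaks of highest signal, with 239 summits or 76.6% in a window, the share of weak peaks was higher (odds ratio 1.95, 1.29 to 2.96; Fisher's exact test, adjusted p = 0.0131). Neighbouring peaks are not independent, so these p-values are likely too small, and they describe the list and not the spread between worms.

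The other 42 weak summits were 28 intergenic, 10 in introns, 2 in exons of non-coding genes, 1 in a 3' UTR and 1 in a coding exon. None of the 7 location classes passed the test between weak and strong peaks (lowest adjusted p 0.788, Fisher's exact test, for the 5' UTR with 0 weak and 2 strong summits). Against sub-threshold peaks introns held 3.21% of weak summits and 28.5% of sub-threshold summits, and coding exons 0.321% and 10.1%. The coding exon summit (signal 49.98) lay in ncl-1, a repressor of nucleolar size, where ZK112.4 overlaps it. The 3' UTR summit (56.2) lay in C05D11.8. Intronic summits of highest signal lay in pqn-41 (80.6), spop-1 (70.8), T28F4.1 (70.3), gei-4 (61.3) and daf-5 (58.8), a gene of the TGF-beta dauer pathway. The gene zfp-1, which encodes a PHD-finger chromatin protein, spans chromosome III 8791535 to 8806305 and held 3 weak peaks beside 1 strong peak of signal 103.5: 1 with signal 73.1 in the promoter window of a transcript, 1 with signal 46.1 in the window of the non-coding gene F54F2.13, and 1 with signal 46.0 in an intron.

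Divergent promoters were common among weak peaks. A summit upstream of coding 5' ends on both strands was found for 103 weak peaks, 33.0%, against 63 strong peaks, 39.9% (odds ratio 0.743, 95% interval 0.5004 to 1.10; Fisher's exact test, p = 0.153). Among the 312 sub-threshold peaks of highest signal the share was 16.7%, and the odds ratio of weak peaks against these was 2.45 (1.68 to 3.58; Fisher's exact test, p = 3.11e-06). Over all sub-threshold peaks it was 2.76%. The difference between weak and strong peaks became significant when peaks were ranked in the list of replicate 1 alone (odds ratio 0.612, p = 0.0169) and when the limit was set at a signal of 150 (odds ratio 0.594, p = 0.0253), both by Fisher's exact test. Strong peaks were not uniform: the divergent share was 58.0% at ranks 1 to 50. It was 32.0% at ranks 51 to 100 and 31.0% at ranks 101 to 158, near the 33.0% of weak peaks. Promoter shares in these bands were 98.0%, 78.0% and 84.5%.

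**Figure D2:**
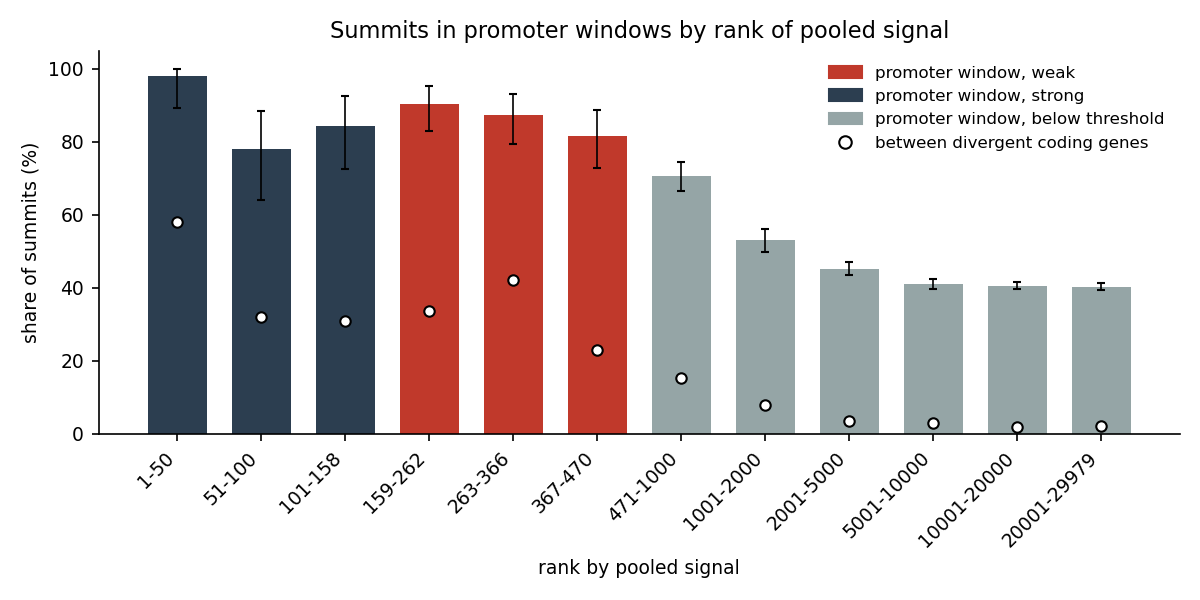
Bars give the share of summits (%) in a promoter window by rank of pooled signal, with exact 95% intervals, for weak (red), strong (dark) and sub-threshold (grey) peaks; open circles give the share between divergent coding genes. Weak bands stand at 90.4%, 87.5% and 81.7%, and beyond rank 5000 the share is 41.0% or lower.

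Within the weak set the promoter share was 90.4% in the 104 peaks of highest signal, 87.5% in the next 104 and 81.7% in the 104 of lowest signal, and the share of divergent promoters was 33.7%, 42.3% and 23.1%. The first band below the threshold, ranks 471 to 1000, had 70.8% in promoter windows and 15.3% in divergent ones.

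A coding gene's window held 246 weak summits, of which 114 served 2 or more coding genes. A further 24 promoter summits had windows of non-coding genes only. Relative to the nearest coding 5' end, with negative values upstream, the median position was -186 bp for weak summits (quartiles -298 and -95 bp), -205 bp for strong and -311 bp for sub-threshold summits. Of the 246, 96.3% were upstream of it and 80.1% were within 400 bp upstream, while 41.8% of the sub-threshold summits with a coding gene were. Trans-splicing removes the first part of many worm transcripts, so an annotated 5' end need not be where transcription begins.

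**Figure D3:**
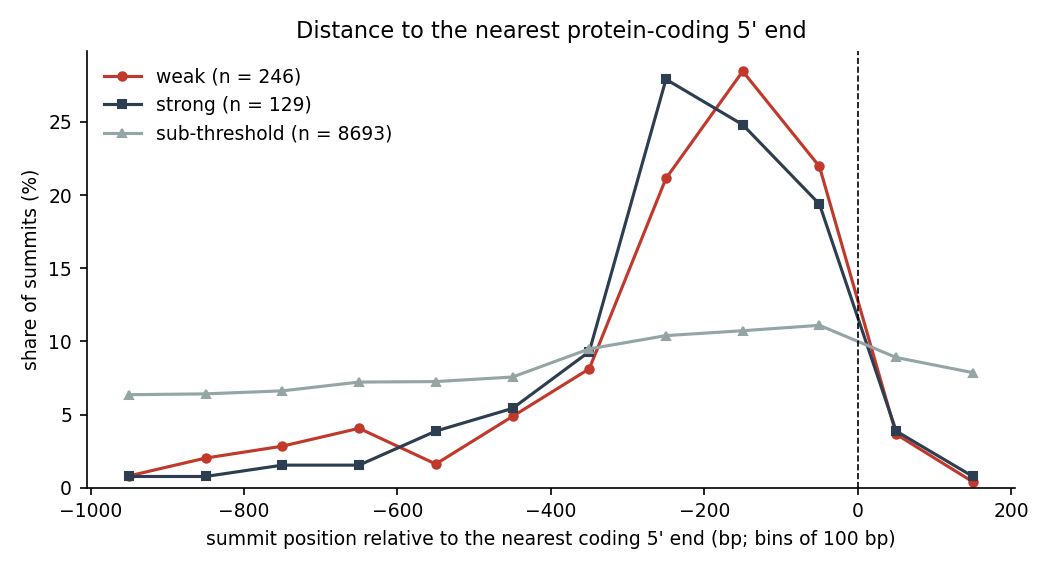
Share of summits (%) in bins of 100 bp by distance to the nearest coding 5' end, negative upstream, for 246 weak (red circles), 129 strong (dark squares) and 8693 sub-threshold peaks (grey triangles). Weak and strong curves crowd into the 300 bp before the 5' end, and the highest weak bin, 200 to 100 bp upstream, holds 28.5% of the summits.

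The windows of 367 protein-coding genes held a weak summit, 4.5% of the 8148 coding genes with any pooled summit in the window, and 204 genes, 2.50%, had a strong one. Of the 8148 genes, 4 had both, and whether that number differs from unrelated placement of weak and strong summits was not tested. Of the 367 genes, 149 were in any of the gene lists and 218 were in none. Of the 40 gene lists, 31 had a member with a weak summit, and in 23 the share exceeded that of all coding genes. No test was run on the lists, whose members were chosen with earlier results of these data known. Genes whose windows hold the same summit share 1 peak, whether or not they are divergent, and some lie far from it.

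Cytosolic ribosomal protein genes had some of the highest shares. Of 30 small-subunit ribosomal protein genes compared, 9 (30.0%) had a weak summit and 13 a strong one, so 22 of 30 had either. The highest of the 9 was rps-22, 122 bp from the summit it shares with polh-1, with a pooled signal of 89.2 and replicate signals of 47.6 and 38.7. It was followed by rps-30 (76.3), rps-17 (74.2) and rps-3 (67.4). Of 47 large-subunit genes 11 (23.4%) had a weak and 17 a strong summit. The highest were rpl-23 (93.0, replicate signals 67.1 and 22.7), rpl-43 (86.0), rpl-1 (83.9) and rpl-29 (79.6). One summit, of signal 76.3, stood between rps-30 and rpl-39, and another, of signal 76.1, between rpl-7 and rab-11.1, which encodes a GTPase of recycling endosomes. By comparison 2 of 46 mitochondrial ribosomal protein genes had a weak summit (4.35%), mrpl-28 (85.3) and mrpl-55 (57.8), a share close to that of all coding genes.

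Other genes of protein synthesis varied in their shares. Of 33 genes for ribosome biogenesis and RNA polymerases I and III 7 had a weak summit and 1 a strong one: ruvb-2, an ATPase of box C/D snoRNP assembly (76.7), the nucleolar methyltransferase gene fib-1 (73.3), and nol-56 (69.3) and nol-58 (65.4), whose products are core proteins of the same particles, were highest. The weak summit at fib-1 is 80 bp from its 5' end and is shared with mut-15, a gene of small RNA amplification. Initiation factors had 3 of 28: eif-6 (79.7), eif-3.B (65.9) and eif-2Bgamma (49.3). Elongation and release factors had 2 of 11, eef-1B.1 (74.6) and eef-1A.2 (72.6), and 3 with a strong summit. Of 18 aminoacyl-tRNA synthetases ears-2 alone had one (76.4). Of 14 genes for the nascent chain and its targeting to the endoplasmic reticulum 4 had a weak summit and 5 a strong one. Among the 4 were the signal peptidase gene spcs-2 (77.7), the oligosaccharyltransferase gene dad-1 (73.2) and trap-2 (60.8).

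Lists of energy supply had more genes with a weak than with a strong summit, as did all coding genes (367 against 204). Whether the balance differed from that of all coding genes was not tested. Of 46 respiratory chain genes 10 (21.7%) had a weak summit and 3 a strong one. They were led by cox-6B of cytochrome oxidase (93.8, replicate signals 57.8 and 35.4), ndub-8 (92.8), cox-4 (65.3) and mev-1 of succinate dehydrogenase (63.0). The 25 genes of the ATP synthase and the vacuolar ATPase had 5 with a weak summit, vha-8 (72.1), vha-1 (70.4), vha-12 (57.3), atp-3 (54.5) and atp-2 (47.3), and 2 with a strong one. Mitochondrial import had 3 of 18, tomm-20 (78.2), tin-9.2 (53.5) and timm-23 (51.7), and 2 with a strong summit.

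Protein folding and removal were also present. Heat shock and DnaJ chaperone genes had 5 of 34 with a weak summit and 5 with a strong one; dnj-14 (78.7), bag-1 (69.0), dnj-13 (65.3) and hsp-3, an endoplasmic reticulum chaperone of the Hsp70 class (56.4), led the weak ones. Chaperonins and prefoldins had 2 of 14, pfd-6 (70.1) and cct-6 (46.3), against 4 with a strong summit. Of 23 proteasome genes 4 had a weak summit: the lid deubiquitinase gene rpn-11 (92.5), the core gene pbs-2 (79.7), rpn-5 of the lid (75.8) and the core gene pas-4 (66.5). Ubiquitin conjugation, ligation and removal had 5 of 59, among them otub-2 (84.3), ubq-2 (63.2), ubc-7 (57.1) and usp-4 (55.3).

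Of 36 nuclear pore and transport genes 7 (19.4%) had a weak summit and 1 a strong one, with the importin gene imb-3 (88.3), the emerin gene emr-1 (86.9), npp-14 (71.7) and ima-2 (64.3) highest. Chromatin regulators had 13 of 74 (17.6%), and 11 with a strong summit, led by swsn-3 of the SWI/SNF complex (79.2), mrg-1 (77.7), zfp-1 (73.1) and set-26 (71.2). Splicing genes had 8 of 56, with snr-4, a core snRNP gene (76.7), hrpk-1 (63.4), prp-40 (60.9) and rsp-7 (60.1). RNA polymerase II, TFIID and Mediator genes had 7 of 57, against 1 with a strong summit, with rpb-11 (87.1), mdt-19 (66.7), rpb-3 (66.5) and mdt-8 (65.1). Histones had none of 20, and the summits of 2 of them were strong. The signals at mdt-19 were 57.7 in replicate 1 and 9.38 in replicate 2.

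Cell division genes with a weak summit were 8 of 81, led by the replication clamp gene pcn-1 (81.0), cdc-6 (80.1), the cohesin gene scc-1 (75.8) and psf-3 (72.2). Vesicle traffic genes were 12 of 86, against 4 with a strong summit, led by vps-15 (98.6), rab-11.1 (76.1), aps-3 (74.4) and dpy-23 (73.8). Germline and small RNA genes were 6 of 58, with mut-15 (73.3), rde-2 (70.1), rde-4 (60.3) and smg-8 (51.6). The cytoskeleton had 2 of 40, the dynein gene dli-1 (53.5) and the dynactin gene dnc-1 (47.9), and cilia had 2 of 26, hyls-1 (51.5) and ift-43 (47.0).

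Several lists of tissue, receptor or signalling genes had few weak summits or none. There were none among 95 nuclear hormone receptors (which allows a share of up to 3.81%, exact 95% interval), 77 C-type lectins, 42 genes of Wnt, Notch, Ras and TGF-beta signalling, 41 neuropeptides, 28 genes of TOR, insulin and stress signalling, 18 intestine markers, 17 muscle genes and 11 major sperm proteins. Chemoreceptors had 2 of 335, both at summits shared with another coding gene, among them sri-5 (63.0), whose summit is shared with rsr-1. Of 115 genes for neuronal channels, receptors and release 2 had one, snt-2 (63.0), which shares its summit with rps-29, and npr-23 (52.8). Collagens and molting had bli-6 (53.9), 1 of 78, and detoxification gst-43 (62.3), 1 of 71. F-box and MATH-domain genes had fbxb-85 (93.4) and fbxb-72 (51.6), 2 of 102. Homeodomain, bHLH and T-box factors had ceh-38, a cut-type homeodomain gene (91.4), and mdl-1, a Mad-like bHLH gene (53.0), 2 of 53. That share, 3.77% (exact 95% interval 0.460 to 13.0), was close to the share of all coding genes. GATA, forkhead and other tissue factors had zip-4 alone (65.4), 1 of 42, in a window shared with nol-58. For the smaller lists with none, the exact upper bounds were 28.5% for sperm proteins, 19.5% for muscle, 18.5% for intestine and 12.3% for TOR, insulin and stress signalling. They were 8.60% for neuropeptides, 8.41% for Wnt, Notch, Ras and TGF-beta signalling and 4.68% for C-type lectins. All of these allow the 4.5% of all coding genes. Strong summits were at 2 genes of Wnt, Notch, Ras and TGF-beta signalling. TOR, insulin and stress signalling, neuropeptides, collagens and molting, and F-box and MATH-domain genes had 1 each, and the other lists of this paragraph had none.

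**Figure D4:**
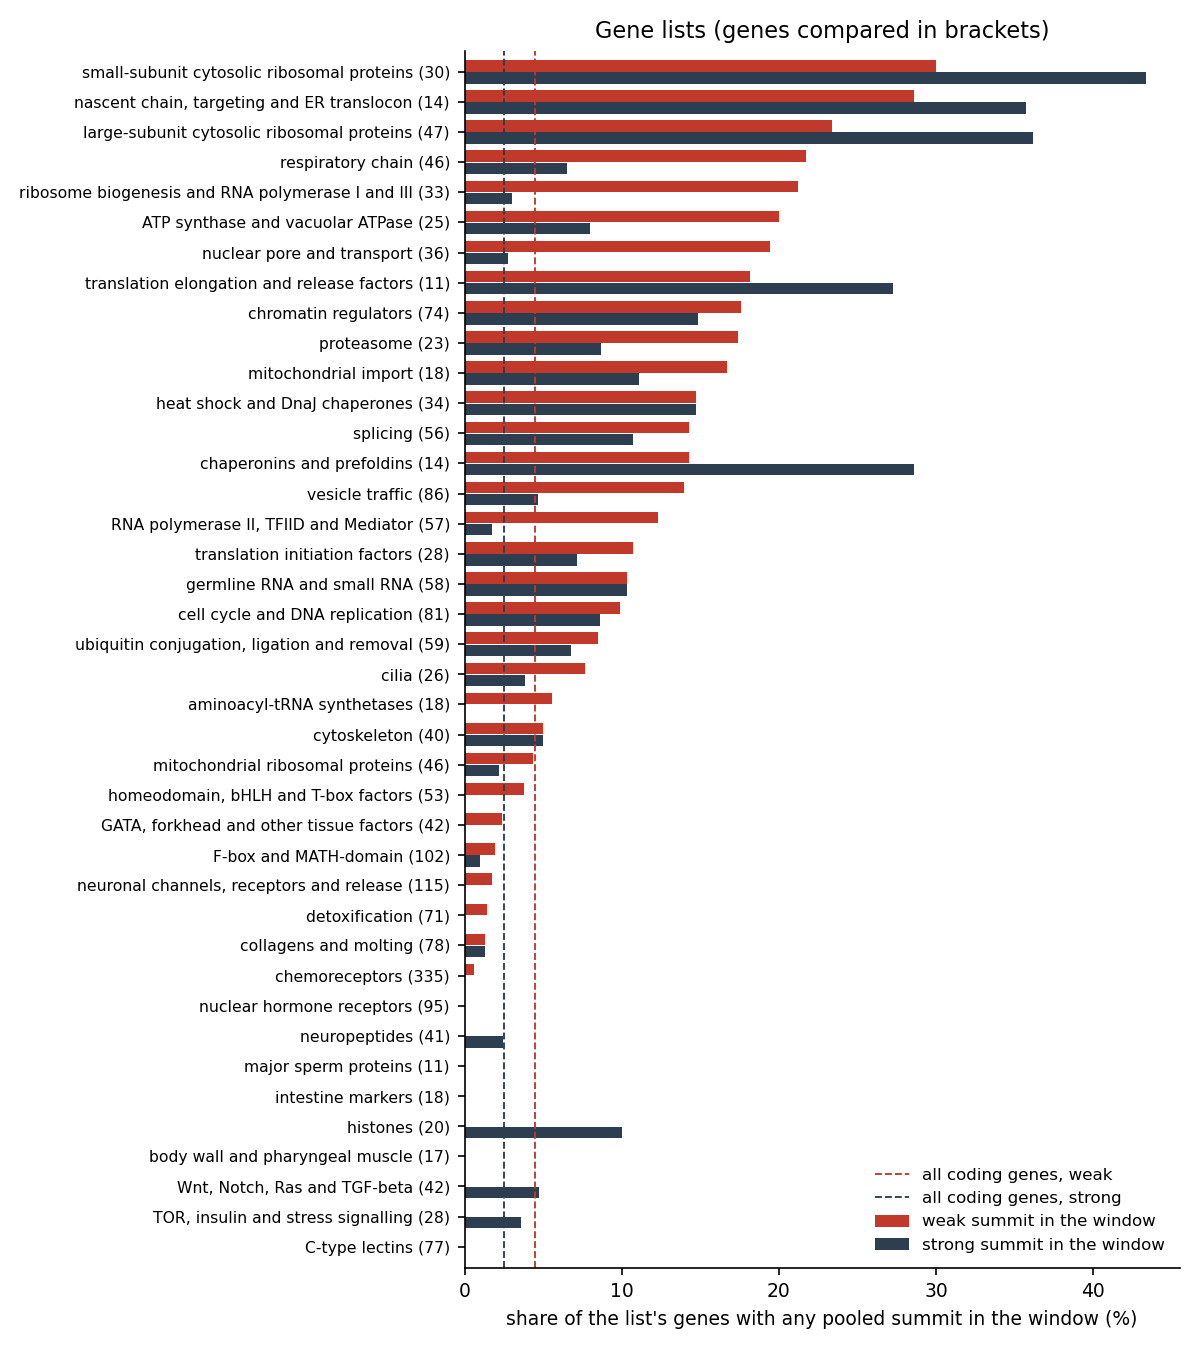
For each of 40 gene lists, the share (%) of its genes with any pooled summit in the window whose window held a weak summit (red, upper bar) or a strong summit (dark, lower bar); dashed lines give the shares over all coding genes, 4.5% weak and 2.50% strong. Small-subunit ribosomal protein genes stand at the top with 30.0% weak, and 9 lists have no weak bar.

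Among non-coding genes, 8 of 50 snRNA genes (16.0%) and 18 of 193 snoRNA genes (9.33%) had a weak summit in the window. The share over 17452 genes of every type was 2.88%. A strong summit was in the window of 19 snoRNA genes (9.84%) and 2 snRNA genes (4%), against 1.58% over genes of every type. The snRNA class is as annotated. Of its 8 genes with a weak summit 3 are mir-1831, sup-6 and sup-39, whose annotated type is in doubt. Of these, mir-1831 and sup-39 share 1 peak. The 8 also include the SL2 trans-splice leader genes sls-2.1 (83.4), sls-2.2 (89.9) and sls-2.8 (60.5), chosen for mention after their values were seen. SL2 is the leader spliced onto downstream genes of C. elegans operons. The weak summits lay 174 bp downstream of the annotated 5' end of sls-2.1, 148 bp downstream of that of sls-2.2 and 35 bp upstream of that of sls-2.8. The window of sls-2.1 also held the summit of a strong peak (213.9) that overlaps the weak one. A strong summit (202.7) lay in the window of another SL2 gene, sls-2.4. Several of the snoRNA genes sat beside a coding gene of the protein-synthesis lists, such as K07C5.11 at nol-56 and F53G12.12 at rpl-7. piRNA genes had 20 of 5468 (0.366%), tRNA genes 4 of 275 (1.45%) and pseudogenes 2 of 485 (0.412%). The gene ZK546.5 itself, on chromosome II 4935818 to 4937974, had no pooled peak within 1000 bp, and unc-119, the rescue gene of the line's background, had 5 pooled peaks of which the highest had a signal of 19.4 and none was thresholded.

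Weak peaks were spread over all 6 nuclear chromosomes. They numbered 84 on chromosome I (26.9%), 64 on III, 53 on II, 49 on IV, 36 on V and 26 on X (8.33%). The X share was 14.6% among strong peaks, with 23 of 158, but the difference did not pass (odds ratio 0.533, 95% interval 0.295 to 0.964; Fisher's exact test, adjusted p = 0.162). Against sub-threshold peaks, 15.8% of which were on X, it did (odds ratio 0.493, 0.331 to 0.735; Fisher's exact test, adjusted p = 0.000476). Chromosome I held more of the weak peaks than of the sub-threshold peaks, 26.9% against 16.6% (Fisher's exact test, adjusted p = 3.36e-05), and V fewer, 11.5% against 18.0% (adjusted p = 0.00459). Of the 286 autosomal weak peaks 62.6% lay in the 33.3% of chromosome length at either end, against 63.0% of strong peaks (Fisher's exact test, p = 1) and 72.3% of sub-threshold peaks (p = 0.000411).

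Weak peaks were more often close to a strong peak than sub-threshold peaks were. A strong summit lay within 5 kb of 26 weak peaks, 8.33%, against 1.83% of sub-threshold peaks (odds ratio 4.96, 3.30 to 7.45; Fisher's exact test, p = 3.73e-10). Within 2 kb there were 14, or 4.49%. The rest had no strong summit within 5 kb, and 4 weak peaks lay within 1000 bp of another weak summit.

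The bases at weak summits differed from those beside them. Median GC content within 50 bases of the summit was 47.5% in weak peaks, against 35.6% in windows centred 250 bp to either side. It was 50.5% at strong summits, 42.6% in the next 312 peaks below the threshold and 32.7% over all sub-threshold summits. Motif and word shares below move with this difference in base content, and its part in them was not tested.

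Of 29 short motifs searched on both strands, 9 (31%) differed between weak summits and their own left flanks by an exact McNemar test, 6 higher and 3 lower at the summit. GAGAGA was in 23.1% of weak summits and 7.69% of left flanks (exact test, adjusted p = 3.37e-07). CTGCGTCT was in 10.9% of summits, 34 of 312, and 0.321% of left flanks (exact test, adjusted p = 6.08e-08). It was listed by its letters, without a named factor, and some of the words taken from strong peaks are pieces of it. How it came to be listed is not stated, so its p-value is not taken as independent support. CGCGCG was in 7.69% of summits and 0.962% of flanks (exact test, adjusted p = 0.000357), the GC box GGGCGG in 8.33% and 1.92% (adjusted p = 0.00104), TGCGCA in 6.73% and 1.60% (adjusted p = 0.0103), and the E2F-type site TTCCCGC in 3.21% and 0.321% (adjusted p = 0.0378). Lower at summits were TTTCAG, the splice acceptor consensus, in 6.73% and 21.8% (exact test, adjusted p = 1.38e-06), the TATA box TATAAA in 2.88% and 9.62% (adjusted p = 0.00364), and TTTTTTT in 9.29% and 16.7% (adjusted p = 0.0346). The GATA, CCAAT, E-box, homeodomain and nuclear receptor motifs did not pass. For the 6 motifs higher at summits, right flanks differed somewhat from left ones. Of right flanks 8.65% held GAGAGA, 1.92% CTGCGTCT, 2.24% CGCGCG, 2.24% GGGCGG, 0.641% TGCGCA and 1.28% TTCCCGC. With right flanks in place of left ones, 7 of the 29 motifs differed by the same test. The 72 weak peaks with GAGAGA held 159 matches, 2.21 each, where 30 strong peaks held 39 matches, 1.30 each. In the 312 sub-threshold peaks of highest signal it was 2.25 each, and over all sub-threshold peaks 1.62.

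None of the 29 motifs (0%) passed the test between weak and strong summits (Fisher's exact test, lowest adjusted p 0.861, and none at an unadjusted p under 0.05). GAGAGA was in 23.1% of weak and 19.0% of strong summits (odds ratio 1.27, 95% interval 0.791 to 2.04), and CTGCGTCT in 10.9% of weak and 11.4% of strong summits (odds ratio 0.941, 0.516 to 1.71). These intervals still allow sizeable differences in either direction. In the 312 peaks just below the threshold the shares, not tested against weak peaks, were 21.8% for GAGAGA, 8.33% for CTGCGTCT and 8.01% for the GC box, near those of weak summits. CGCGCG was in 3.85% of them, and TGCGCA in 3.53%.

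The 10 words with the largest excess of summits over flanks in strong peaks were then looked up in weak peaks, which had no part in choosing them. In weak peaks 9 of the 10 were more frequent at the summit than in the left flank. ACGCAG was in 22.1% of weak summits and 4.49% of flanks (exact McNemar test, adjusted p = 1.02e-09), GACGCA in 19.6% and 1.92% (adjusted p = 1.38e-12), CGAGAC in 16.0% and 2.24% (adjusted p = 6.08e-09), AGACGC in 15.4% and 3.21% (adjusted p = 1.16e-07), GCGAGA in 15.1% and 4.81% (adjusted p = 2.61e-05), GAGACC in 13.8% and 2.24% (adjusted p = 1.44e-07), AGCGCG in 13.8% and 1.92% (adjusted p = 6.14e-08), ACCGTA in 10.9% and 2.24% (adjusted p = 2.81e-05) and AGACCC in 10.6% and 0.962% (adjusted p = 1.16e-07). ACGGTA, in 5.45% of weak summits and 2.24% of flanks, did not pass (exact test, adjusted p = 0.0639).

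At least 1 of the 10 words was within 50 bp of 184 weak summits, 59.0% (53.3 to 64.5), and in 19.2% of their left flanks. The share was 44.6% in the next 312 peaks below the threshold (odds ratio 1.79, 1.30 to 2.45; Fisher's exact test, p = 0.000415) and 15.4% over all sub-threshold peaks, about as in their own flanks (14.8%). In strong peaks it was 78.5%, given as a description since the words were chosen there. Within the weak set the share was 66.3% in the 104 peaks of highest signal, 61.5% in the next 104 and 49.0% in the 104 of lowest signal. It was 60.4% of the 270 weak summits in promoter windows, and 21 of the 42 other weak summits held a word.

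**Figure D5:**
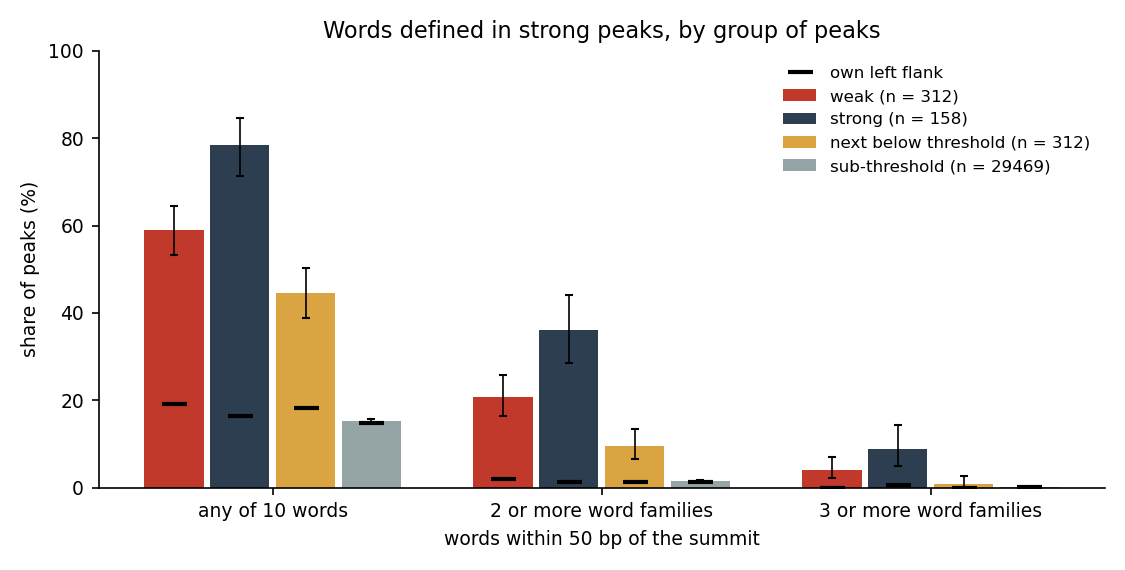
Share of peaks (%) with any of the 10 words, or with words of 2 or more or 3 or more word families, within 50 bp of the summit, for weak (red), strong (dark), next below threshold (gold) and all sub-threshold peaks (grey), with exact 95% intervals; black ticks mark the left flanks of the same peaks. Weak peaks stand at 59.0% with any word against 19.2% in their flanks, and at 20.8% with 2 or more families against 1.92%.

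By their overlapping letters the words fall into 4 families. The first holds ACGCAG with GACGCA and with AGACGC, which are pieces of CTGCGTCT. The second holds GAGACC and AGACCC with CGAGAC and with GCGAGA, which overlap around GGTCTC. The third holds ACCGTA and ACGGTA, which overlap each other, and AGCGCG stands alone. This grouping was made after the words were seen. The first family was in 97 weak peaks (31.1%), the second in 87 (27.9%), the third in 35 (11.2%) and AGCGCG in 43 (13.8%). In strong peaks the same shares were 38.6%, 38.0%, 30.4% and 17.1%. The strong shares are a description, since the words were chosen there. Words of 2 or more families were in 65 weak peaks, 20.8%, against 1.92% of left flanks, as at ndub-8 and cup-14 and at rpl-29 above. The commonest pair, the first and second families, was in 31 weak peaks.

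The bases after GGTCTC are given as a description, without a test, since the words were chosen in strong peaks. In weak peaks 20 of 45 matches (44.4%) were followed directly by GC and 24 (53.3%) had CGA 4 bases further on, and 18 (40.0%) had both. In strong peaks 28 of 39 (71.8%) had the GC, 28 the CGA and 22 (56.4%) both. Over all sub-threshold summits 8.16% of 809 matches had both. The sequence at rpl-29 above shows the run with the GC, and that at ndub-8 and cup-14 shows it without. These extensions were chosen after the strong and weak sequences had been seen. In 7 of 17 pairs of GGTCTC and ACCGTA within 100 bp of strong summits the words lay on opposite strands 19 bp apart, centre to centre; among 20 such pairs in weak peaks no spacing in 1 orientation occurred more than 2 times. Of the 312 weak peaks 138 held a family word without GAGAGA, 26 held GAGAGA without a family word, 46 held both and 102 held neither.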

How the data were processed

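ChIP-seq of ZK546.5 with a GFP-FLAG tag was deposited as peak lists for 2 biological replicates of 1 group, so no groups of worms were compared. Per the submitters' records, peaks were called on each replicate and on both pooled, against a control library not analysed here, and IDR gave the thresholded list. The aligner, caller, IDR threshold and depth of sequencing were not given in the sources used here, so depth is unknown. Signal values are the authors' own for each peak, from their caller, and lists are not on a shared scale. The deposited score values entered no result. Members had a signal of at most 100 and the summit was taken as the start plus the deposited offset.

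Summits were placed with Ensembl release 115 on WBcel235 (the ce11 sequence, taken from RefSeq), each in 1 class: promoter first, then exons (coding before untranslated before non-coding genes), then introns, and intergenic last. Shares were compared by Fisher's exact test with Benjamini-Hochberg adjustment over the 7 classes, 6 chromosomes or 29 motifs at a threshold of 0.05, with 0.5 added to each cell for odds ratios. Intervals are at 95% and cover counting error only. A motif counted as present if either strand held it within 50 bp of the summit, or in an equally long flank with its centre 250 bp away; summit and left flank were compared by an exact McNemar test. Words were the 10 of 2080 six-base words with the largest excess of summit over mean flank share in strong peaks. On simulated data 0 of 7 location classes and 0 of 29 motifs were called with no difference planted, and 10 of 10 planted motifs were recovered. Each was a single run. The motif run set shuffled left flanks against other shuffles of the same left flanks, with equal base content. It therefore cannot show how the difference in base content between summits and flanks affects the calls.

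The members and lists were chosen with earlier results of these data known, and gene lists were corrected after a first look to drop wrongly matched symbols. Named are the genes at the 5 members just below 100, the 5 of lowest signal, 5 with the best and 5 with the most different replicate ranks, up to 4 genes per list with the strongest weak summit, up to 5 members of each class other than promoter, ZK546.5 and unc-119. Genes outside this rule, such as polh-1, cup-14, ccar-1 and the snoRNA genes, were picked with their values known. Alternatives covered other windows, midpoints, signal limits, flanks, ce10 lists and each replicate's own list. Python 3.11.15, numpy 2.4.6, scipy 1.17.1 and matplotlib 3.10.9 were used.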

Additional observations from a re-analysis of the deposited data

How the results depend on the processing

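Of 80 alternative values over 15 results, 71 kept their direction and call or, for plain counts, stayed within 1.5 times the count reported. The use of midpoints is counted among these. It changed almost nothing for weak peaks, since 311 of the 312 had the summit exactly in the middle. With a window of 2000 bp upstream, the odds ratio of weak against strong promoter shares turned to 1.57 (adjusted p = 0.726, Fisher's exact test). The outer-part odds ratio of weak against strong autosomal peaks became 1.01 on the ce10 lists, and ranged from 0.767 to 1.08 when either replicate's list was left out. Weak against strong divergent shares passed with the limit at 150 (odds ratio 0.594), and ranged from 0.612 to 0.781 when either replicate was left out. The peaks at or below 70, fewer in number, had 5 motifs that differed from flanks, where 9 did over all weak peaks, 6 without replicate 1 and 7 without replicate 2. Motifs that differed between weak and strong peaks numbered 0 without replicate 1 and 1 without replicate 2 (the E-box CACCTG), where weak and strong were set by rank in the remaining list, and the cause was not tested. A weak peak was found in both replicate lists in 99.7% of cases at 1 bp, in 97.8% at an overlap of 50% of both peaks and in 74.4% with summits at most 50 bp apart.

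No paired analysis was possible because all samples belong to 1 group. Leaving out weak peaks within 2 kb of a strong summit, the flank on the other side and promoter peaks alone were chosen after seeing the data. Only the promoter and divergent comparisons between peak sets were rerun, without the peaks within 2 kb, and kept their calls; the motifs that differed from flanks numbered between 7 and 9. Tests over peaks do not allow for neighbours, and replicates enter only through their own lists.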
